A study of Rattus norvegicus with 14 samples.

Results

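The insulin-like growth factor (IGF) system of the fetal rat gonad was followed through 9 genes: the ligands Igf1 and Igf2, the receptors Igf1r and Igf2r, and the binding proteins Igfbp2, Igfbp3, Igfbp4, Igfbp5 and Igfbp6. They were taken as every probe set (a group of short probes for 1 transcript) to which the array's annotation gave 1 of these symbols, which found 18 of the 15866 tested probe sets and 9 of the 10411 named genes. Igf2 had 4 probe sets, Igfbp5 had 3, Igf1, Igf2r, Igfbp3 and Igfbp6 had 2 each, and Igf1r, Igfbp2 and Igfbp4 had 1 each.

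RNA was measured on 14 single-channel Affymetrix rat arrays in 7 groups of 2. The groups were testis cultured from embryonic day 13 (E13) for 3 days, fresh testis at E13, E14 and E16, and fresh ovary at E13, E14 and E16. No genotype or drug distinguished the groups, and the labels used here name no strain. Each array received RNA pooled from 20 to 40 gonads, and the 2 samples of a group were separate pools, so that single fetuses were not resolved. Culture took place on floating filters over CMRL 1066 medium, which held insulin at 10 µg/ml, transferrin and albumin and was replaced on day 2. Fresh gonads were not cultured, and the fresh group with the same total time since E13 is E16 testis.

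IGF1 and IGF2 are secreted peptides that signal through the tyrosine kinase receptor IGF1R and, for IGF2, also through the insulin receptor. IGF2R does not signal in this way: it takes up IGF2 and delivers it, like proteins tagged with mannose 6-phosphate, to lysosomes. The binding proteins hold the ligands in the extracellular space, extend their life and limit or permit their access to the receptor, and in mice the receptors of the insulin family are needed for the testis to form.

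All values are the deposited linear intensities in arbitrary units, levels are means ± SD over the 2 arrays of a group, and differences are on the log2(intensity + 16) scale, which understates changes of dim probe sets. Differences were tested with limma across all 15866 probe sets, and a difference passed at a Benjamini-Hochberg adjusted p under 0.05. Only 2 arrays stood for each group, which limits the precision of all values. The arrays hold RNA of whole gonads, so that fewer cells of a type and less RNA per cell cannot be told apart.

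The labels were checked on genes of known sex or cell type. Amh, the hormone of Sertoli cells, read 477 to 1093 in cultured, E14 and E16 testis, 63.9 and 79.5 in E13 testis and 9.6 to 38.5 in ovary. Xist, the RNA of the inactive X chromosome in female cells, went against the label on 4 arrays: 36.2 in E13 testis replicate 1, 269 in E14 testis replicate 1, 151 in cultured testis replicate 1 and 12.8 in E16 ovary replicate 2. On the other arrays Xist read 1.5 to 4.8 in testis and 152 to 672 in ovary. Sry read 163 and 185 in E13 testis, against 20.1 and 28.7 in E13 ovary. Fst, a gene of the fetal ovary, read 39.5 to 138 over the testis arrays and 123 to 449 over the ovary arrays. Of the arrays with discordant Xist, Fst read 138 in cultured testis replicate 1 and 120 in E14 testis replicate 1. It read 53 in E13 testis replicate 1 and 366 in E16 ovary replicate 2. Without the 4 arrays of discordant Xist, each of their groups kept a single array. In that limma fit no call remained in any comparison among the 18 probe sets described below. Most calls over the whole array at E16 were lost as well, so this loss is not particular to the IGF genes. Differences of single genes, on the brightest probe set, that reached an unadjusted p under 0.05 are also given without these arrays. The chip identifiers also carry digits that were coded as 8 label batches and 3 label periods, which are not known to be hybridisation or extraction batches, and 3 of the 4 arrays shared a batch with an array of another group. Between the 2 arrays of a group, r over probe sets lay at 0.949 to 0.982.

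In 13 comparisons, only Igfbp2 passed among the 9 genes. Its intensity was lower in E16 testis than in E16 ovary and lower in testis as a mean over the 3 ages. The other 8 genes passed in 0 of the 13 comparisons, and several of them, led by Igf1 and Igfbp3, differed at an unadjusted p under 0.05 only.

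**Figure D1:**
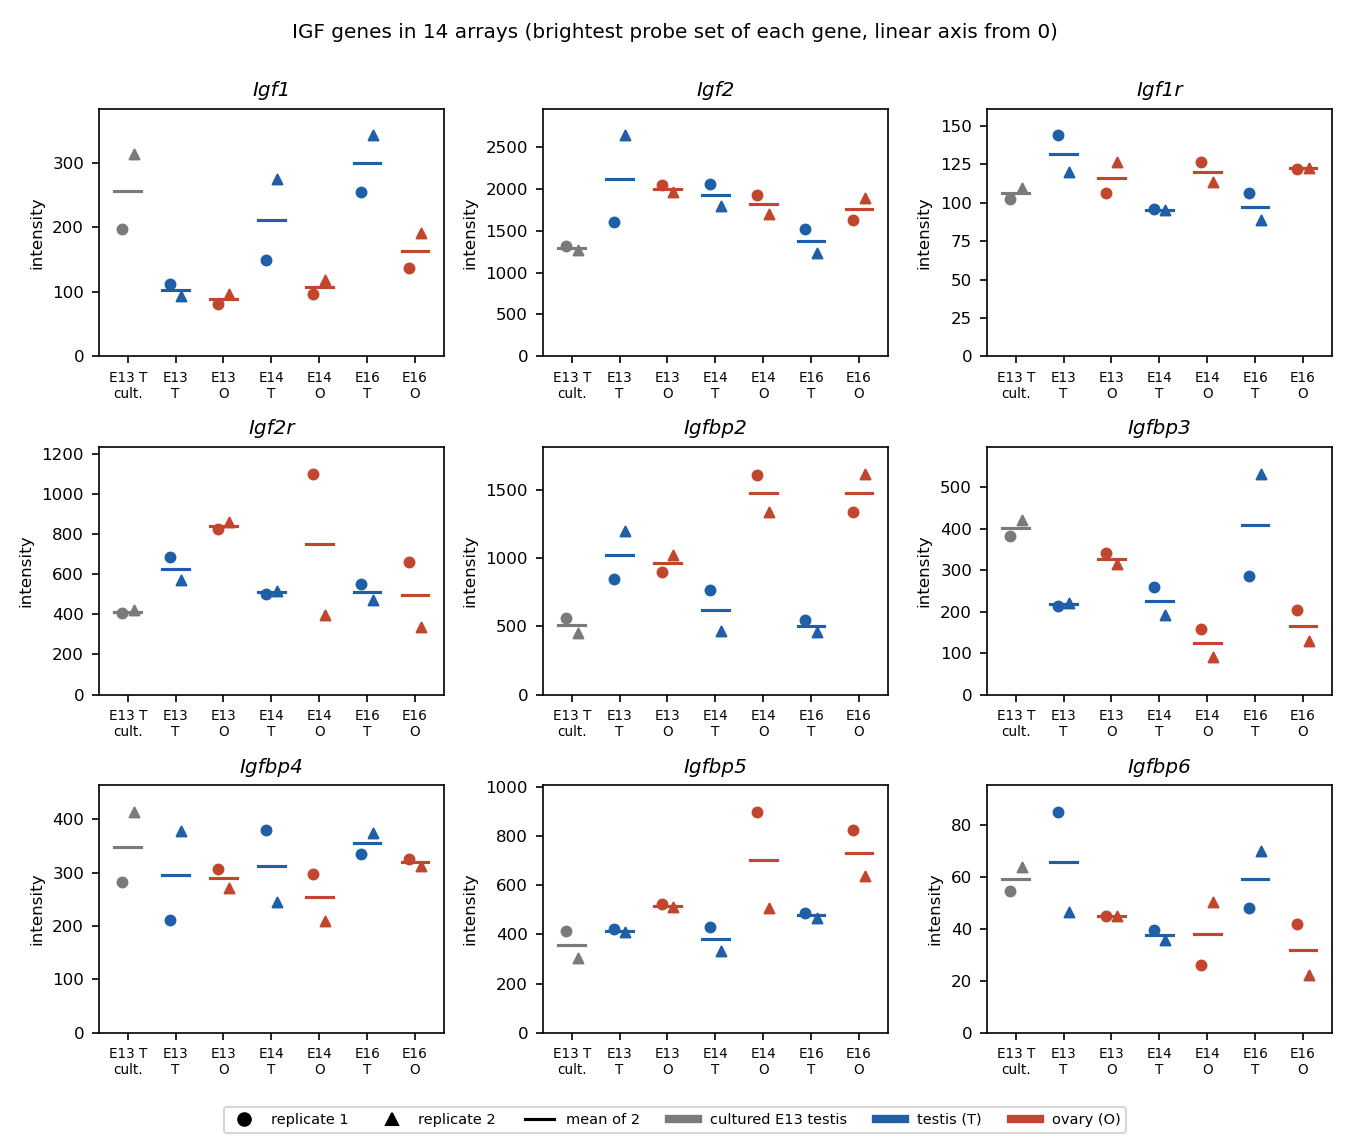
Deposited intensity (arbitrary units, vertical axis, separate for each gene) of the brightest probe set of each IGF gene on the 14 arrays, by group along the horizontal axis. Circles are replicate 1, triangles replicate 2 and lines group means (n = 2); Igfbp2 reads 458 and 546 in E16 testis, below 1339 and 1617 in E16 ovary.

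The promoters of the binding proteins Igfbp2 and Igfbp3 are shown because these genes gave the only passing difference and the widest range of group means. Each sequence is the 250 bases before the annotated start in RefSeq on assembly GRCr8, read 5′ to 3′ on the gene's strand, with motif matches in capitals. Igfbp2 lies on the plus strand, at chr9:81864561-81864810, and the capitals mark a GC box. Igfbp3 lies on the minus strand, at chr14:86277945-86278194, and the capitals mark a TATATA run.
Igfbp2: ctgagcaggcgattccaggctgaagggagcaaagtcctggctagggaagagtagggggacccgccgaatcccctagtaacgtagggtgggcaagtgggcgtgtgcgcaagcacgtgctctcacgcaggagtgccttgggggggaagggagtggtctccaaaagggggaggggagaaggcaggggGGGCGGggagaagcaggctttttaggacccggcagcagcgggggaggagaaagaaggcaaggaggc
Igfbp3: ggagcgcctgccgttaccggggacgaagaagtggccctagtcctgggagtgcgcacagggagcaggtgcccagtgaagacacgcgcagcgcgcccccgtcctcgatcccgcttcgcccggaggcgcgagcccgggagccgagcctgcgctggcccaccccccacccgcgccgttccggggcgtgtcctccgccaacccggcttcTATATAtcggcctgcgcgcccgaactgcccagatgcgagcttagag
The motifs searched on both strands were the GC box (GGGCGG), the TATA element (TATAAA), a similar run (TATATA), the half-site of steroidogenic factor 1 (AAGGTCA) and the SOX core (AACAAT), and no printed match overlaps another. GGGCGG was found in 4 of the 10 windows of the 9 genes (1 of the 2 windows of Igf2, and those of Igf1r, Igf2r and Igfbp2), against 30.5% of 33469 rat promoter windows of this length. TATATA was found only in Igfbp3 (5.45% of all windows), TATAAA only in Igfbp4 (12.9%), AACAAT in Igf1 and Igfbp6 (10.3%), and AAGGTCA in 0 of the 10 windows (3.99%). These are matches of letters in a short window and no measure of binding. In the same assembly Igfbp2 and Igfbp5 are neighbouring genes, and Igfbp3 neighbours Igfbp1.

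Igfbp2, a binding protein with a preference for IGF2, read lower in testis than in ovary at E14 and E16, and the difference passed at E16. Its probe set read 842 and 1194 in E13 testis, against 899 and 1022 in E13 ovary. At E14 it read 765.5 and 465 in testis, against 1607 and 1335 in ovary. At E16 it read 546 and 458 in testis, against 1339 and 1617 in ovary. The E13 arrays overlapped between the sexes, whereas all 4 testis arrays at E14 and E16 lay below all 4 ovary arrays of those ages. At E16 the means were 502 ± 61.9 in testis and 1478 ± 197 in ovary (SD, n = 2 each), a fold of 0.347. The log2 difference of -1.53 (SE 0.26, 95% interval -2.10 to -0.96) passed with an adjusted p of 0.0147 in limma. At E14 the means were 615 ± 213 in testis and 1471 ± 192 in ovary, and the difference of -1.27 (-1.84 to -0.70) did not pass in limma (adjusted p = 0.131, unadjusted 0.00046). Without the 4 arrays whose Xist went against the label it was -1.62 (adjusted p = 0.158). At E13 the difference was 0.06 (adjusted p = 0.953, limma).

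As the mean over the 3 ages, Igfbp2 was lower in testis, at 712 ± 285, against 1303 ± 295 in ovary (SD, n = 6 each). The difference was -0.91 (SE 0.15, -1.24 to -0.58), with an adjusted p of 0.0103 in limma. The E16 sex difference minus the E13 one was -1.59 (-2.40 to -0.78) and did not pass (limma, adjusted p = 0.2, unadjusted 0.00117; -1.71 and 0.423 without the 4 arrays), so an Igfbp2 sex difference that grew with age was not established by this test. Within single label batches, where each value rests on 1 array per sex, testis minus ovary was -1.49 at E14 and -1.78 at E16. Within label period 3 at E13 it was -0.18. The E16 value uses E16 ovary replicate 2 and the E13 value E13 testis replicate 1, whose Xist went against the label.

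The Igfbp2 call at E16 depended on which arrays were kept. Without the 4 arrays whose Xist went against the label, the difference was -1.39 with an adjusted p of 0.104 in limma, and the mean over ages was -0.90 with an adjusted p of 0.0637. The adjusted p at E16 was 0.062 without E16 testis replicate 1, 0.134 without E16 testis replicate 2 and 0.0813 without E16 ovary replicate 2, with differences of -1.65, -1.40 and -1.39. It was 0.0933 in a fit of the 4 E16 arrays alone. Over all alternatives the difference lay between -1.82 and -1.39, and the adjusted p between 0.00183 and 0.134.

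Between ages, the Igfbp2 differences had opposite signs in the 2 sexes, and none of them passed in limma. In testis it read lower at E16 than at E13 by a log2 difference of -0.98 (unadjusted p = 0.00302, adjusted p = 0.133). In ovary it read higher at E16 than at E13 by 0.61 (unadjusted p = 0.0385, adjusted p = 0.424), and the step between E14 and E16 was 0.01. These were -1.23 in testis (adjusted p = 0.139) and 0.48 in ovary (0.596) without the 4 arrays. With label period as a block, the testis difference between E16 and E13 was -1.27 with an adjusted p of 0.035. In that fit the sex difference at E14 was -1.57 with an adjusted p of 0.0454. Between E13 and E14, Igfbp2 differed by -0.73 in testis (adjusted p = 0.562, limma) and by 0.60 in ovary, and neither step passed. Without the 4 arrays these steps were -1.33 and 0.60.

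Markers of several cell types moved with the sexes at E16, and their part in the Igfbp2 result was not tested. Of 12 Sertoli cell genes, 7 passed as higher and 1 as lower in E16 testis. The summed intensities of the 12 were 4620 and 4472 in testis, against 2290 and 2495 in ovary. Of 8 fetal Leydig cell genes, 7 passed as higher, and the sums of the 8 were 4304 and 8397 in E16 testis, against 178 to 251 over the ovary arrays. Of 5 pre-granulosa genes, 2 passed as lower in E16 testis, and the means of all 5 were lower there. Their sums were 381 and 310.4 in testis, against 1324 and 885 in ovary. Of 7 genes of the mesonephros, the transient kidney that lies against the gonad, 0 passed in any comparison. Their sums were 270.3 and 214 in E16 testis, against 364 and 391 in E16 ovary. The mesonephric sums were 309 and 217 in cultured testis, 552 and 513 in E13 testis, and 471 and 495 in E13 ovary. At E14 they were 428 and 293 in testis, against 454 and 643 in ovary. Emx2, which the gonad also expresses, made up much of the mesonephric sum (44.4 to 482.5 over all arrays), while Umod stayed at 4.3 to 14.5, Cdh16 at 4.9 to 52.2 and Pax8 at 3.6 to 40.8.

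**Figure D2:**
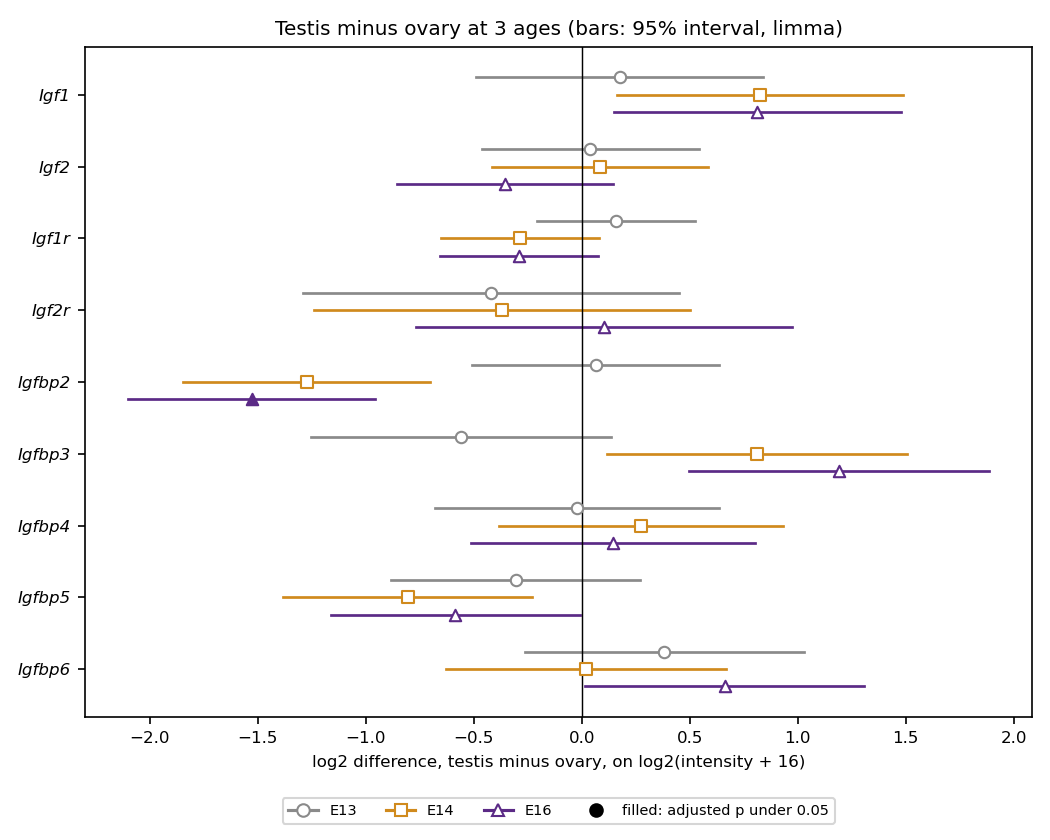
Testis minus ovary at E13, E14 and E16 for the brightest probe set of each IGF gene, as the log2 difference on log2(intensity + 16) (horizontal axis) with its 95% interval from limma. The Igfbp2 point at E16 (-1.53) is the only filled one, which marks an adjusted p under 0.05, and the Igfbp3 points lie at -0.56, 0.81 and 1.19 from E13 to E16.

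Igfbp3, the main carrier of IGFs in serum, read lower in testis than in ovary at E13 and higher at E14 and E16, without a passing difference at any age. Its brighter probe set read 213 and 221 in E13 testis, against 340.4 and 315 in E13 ovary. It read 260 and 193 in E14 testis, against 158 and 91.1 in E14 ovary. It read 287 and 533 in E16 testis, against 204 and 129 in E16 ovary. On this probe set the groups did not overlap at any of the 3 ages, and the order of the sexes at E13 was the opposite of that at E14 and E16. The log2 differences were -0.56, 0.81 and 1.19 from E13 to E16, with adjusted p of 0.701, 0.565 and 0.104 in limma. As the mean over ages the difference was 0.48 (adjusted p = 0.183, limma), and 0.32 without the 4 arrays of discordant Xist. The E16 sex difference minus the E13 one was 1.75 (0.77 to 2.73), with an unadjusted p of 0.00235 and an adjusted p of 0.269 in limma. Without the 4 arrays whose Xist went against the label, the sex differences of Igfbp3 were -0.53, 0.61 and 0.89 from E13 to E16 (adjusted p = 0.68, 0.707 and 0.389), and the E16 minus E13 one was 1.42 (0.709). The E16 difference was 0.76 (adjusted p = 0.507) without E16 testis replicate 2, the highest array, and the E14 difference was 0.46 (0.58) without E14 ovary replicate 2.

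In ovary, Igfbp3 read lower at E14 than at E13 by a log2 difference of -1.33 (unadjusted p = 0.00142, adjusted p = 0.564, limma), and at E16 the difference from E13 was -0.94 (adjusted p = 0.261). In testis the difference between E16 and E13 was 0.81 (adjusted p = 0.363), and it was 1.24 without E16 testis replicate 1 and 0.38 without E16 testis replicate 2. Without the 4 arrays the ovary differences were -1.33 at E14 and -0.64 at E16 and the testis difference was 0.78 (adjusted p = 0.802, 0.719 and 0.603, limma). Between E14 and E16 testis the brighter set differed by 0.77 (adjusted p = 0.909, limma), and by 0.97 without the 4 arrays. This step was 0.34 without E16 testis replicate 2. The dimmer Igfbp3 probe set correlated with the brighter one at r = 0.834 over the 14 arrays. At E13 it overlapped between the sexes, at 227 and 172 in testis, against 256 and 187 in ovary (-0.14, adjusted p = 0.923, limma), and between E13 and E16 testis it differed by 0.45 (adjusted p = 0.736). It read 242 and 313 in E16 testis, against 164 and 65.8 in E16 ovary, a difference of 1.26 (adjusted p = 0.123, limma). Both probe sets thus read higher in E16 testis and neither passed, while the reverse order at E13 without overlap was seen on the brighter set alone. Within the label batch that held both sexes at E16, the brighter probe set differed by 1.92, and within the one at E14 by 0.96. The ovary array of the E16 pair was E16 ovary replicate 2, of discordant Xist. Without E16 ovary replicate 1, the dimmer set passed at E16, at 1.83 with an adjusted p of 0.0312, and with label batch as a random block both sets passed (1.35 and 1.44, adjusted p = 0.0201 and 0.0215). With label period as a block the dimmer set passed (1.62, adjusted p = 0.0234).

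Smooth muscle and peritubular cell genes were higher on the same E16 testis arrays, and their part in the Igfbp3 values was not tested. Of 8 such genes, 5 passed as higher in E16 testis, and the sums of the 8 were 2379 and 2724 in testis, against 1041 and 1230 in ovary. By Pearson correlation over the 14 arrays, the genes most like Igfbp3 were Tagln (r = 0.924), Rnf19a (0.893), Tagln2 (0.888), Traf5 (0.875) and Adcy2 (0.868). Tagln, an actin-binding protein of smooth muscle, averaged 148 ± 76.9 in E16 testis and 26.3 ± 15.4 in E16 ovary (SD, n = 2 each). These are the highest correlations among all named probe sets, over arrays that share label batches.

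Igfbp5, which binds extracellular matrix as well as IGFs, read lower in testis at all 3 ages without a passing difference. Its brightest probe set read 422 and 409 in E13 testis, against 523 and 511 in E13 ovary. It read 431 and 334 in E14 testis, against 899 and 507 in E14 ovary. It read 489 and 467 in E16 testis, against 823 and 638 in E16 ovary. The sexes did not overlap at any age, but the 2 E14 ovary arrays lay further apart than the sexes did at E13. The differences were -0.30, -0.81 and -0.59 from E13 to E16 (adjusted p = 0.777, 0.441 and 0.378, limma). The E14 difference was -0.40 without E14 ovary replicate 1 and -1.21 without E14 ovary replicate 2. The mean over ages was 425 ± 53.6 in testis and 650.1 ± 172 in ovary (SD, n = 6 each), a difference of -0.57 with an unadjusted p of 0.00323 and an adjusted p of 0.082 in limma. Without E14 ovary replicate 2 this mean difference was -0.70 and passed (adjusted p = 0.0193), without any other single array it did not pass, and without the 4 arrays it was -0.69 (0.136), with -0.98 at E14 (0.53) and -0.77 at E16 (0.355). The second Igfbp5 probe set correlated with the first at r = 0.518 and differed by -0.99, -0.46 and 0.54 from E13 to E16 (adjusted p = 0.766, 0.93 and 0.846, limma), lower in testis like the first set at E13 and E14 and not at E16. The third read at most 12.8.

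Igfbp4, a binding protein that the protease PAPPA cleaves, had group means within 0.48 of each other on the log2 scale. It read 336 and 374 in E16 testis, against 325 and 313 in E16 ovary, with no overlap at E16, and over all 14 arrays it lay between 210 and 414. The sex differences were -0.02, 0.27 and 0.14 from E13 to E16, and none of the 13 comparisons reached an unadjusted p under 0.05 in limma.

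Igfbp6, which prefers IGF2, was dim: its brighter probe set lay below the array's median on 12 of 14 arrays. It read 48 and 70.2 in E16 testis, against 41.9 and 22.1 in E16 ovary, and 85.2 and 46.6 in E13 testis, against 45.1 and 45 in E13 ovary. At E14 it read 39.5 and 35.8 in testis, against 26.2 and 50.3 in ovary, where the sexes overlapped. The E16 difference of 0.66 had an unadjusted p of 0.0459 and an adjusted p of 0.375 in limma, and without E16 ovary replicate 2 alone, or without all 4 arrays, it was 0.36 (0.679 and 0.644). The 2 Igfbp6 probe sets correlated at r = 0.221. The dimmer set lay below the array's median on all 14 arrays. It too read higher in testis without overlap at E13 (47.5 and 41.6, against 22 and 20.4 in ovary) and E16 (52.7 and 40.5, against 16 and 25.3). At E14 it overlapped, at 36.5 and 21.5 in testis, against 19.7 and 26.4 in ovary, and it did not pass at any age.

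Of the ligands, Igf1 read higher in testis than in ovary at E14 and E16 and higher at later ages in both sexes, and none of these differences passed. Its brighter probe set read 112 and 92.7 in E13 testis, against 80.9 and 96.8 in E13 ovary. It read 148 and 274 in E14 testis, against 96.5 and 119 in E14 ovary. It read 255 and 342 in E16 testis, against 136.5 and 190.2 in E16 ovary. The sexes overlapped at E13 and not at E14 or E16. The sex differences were 0.18, 0.83 and 0.81 from E13 to E16 (adjusted p = 0.882, 0.524 and 0.268, limma), and 0.60 as the mean over ages (unadjusted p = 0.00509, adjusted p = 0.102). With the 4 arrays of discordant Xist left out they were 1.24 at E14 (adjusted p = 0.354), 1.03 at E16 (0.189) and 0.77 over the ages (0.0906), and without E14 testis replicate 2 the E14 difference was 0.42. Within the label batches that held both sexes, Igf1 differed by 1.11 at E14 and 0.80 at E16. In the E16 pair the ovary array was replicate 2, of discordant Xist. Between E13 and E14 testis, Igf1 differed by 0.89 (adjusted p = 0.528, limma). This step was 1.42 without the 4 arrays and 0.48 without E14 testis replicate 2.

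Testis Igf1 at E16, at 299 ± 61.6, was above E13, at 102 ± 13.8 (SD, n = 2 each), by a log2 difference of 1.40 (0.74 to 2.06) that missed the threshold (unadjusted p = 0.000686, adjusted p = 0.0602, limma). This difference passed with label period as a block (1.63, adjusted p = 0.00945), with label batch as a random block (1.44, 0.0251) and when only probe sets with a mean intensity of at least 50 were tested (1.40, 0.0343). It also passed without either E14 testis array (adjusted p = 0.045 in both fits). It did not pass without any other single array, with the largest adjusted p, 0.398, without E16 testis replicate 2 (1.20), nor without the 4 arrays (1.52, 0.113). In ovary the difference between E16 and E13 was 0.76 (unadjusted p = 0.0278, adjusted p = 0.375; 0.54 and 0.583 without the 4 arrays). The second Igf1 probe set gave 1.75 for testis (adjusted p = 0.182), and 2.69 (0.0297) without E13 testis replicate 1; it read 27.1 on E13 testis replicate 2 and 144 on replicate 1, and had sex differences of -0.55, 0.45 and 0.63 from E13 to E16.

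The genes most like Igf1 over the 14 arrays were Gstm2 (r = 0.962), Gsta1 (0.953), Vnn1 (0.952), Aard (0.935) and Selenom (0.935). Aard and Vnn1 also stood among the Sertoli cell markers used here. Aard averaged 1514 ± 69.2 in E16 testis and 509 ± 39.5 in E16 ovary, and Vnn1 169 ± 4.1 in E16 testis and 64.7 ± 31.5 in E16 ovary (SD, n = 2 each). The part of Sertoli cell content in the Igf1 values was not tested.

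Igf2, the imprinted fetal growth factor expressed from the paternal allele, did not pass in any comparison. Its bright probe set read 1603 and 2639 in E13 testis, against 2043 and 1958 in E13 ovary. It read 2057 and 1792 in E14 testis, against 1927 and 1702 in E14 ovary. It read 1514 and 1232 in E16 testis, against 1629.5 and 1888 in E16 ovary. The sexes overlapped at E13 and E14, and both E16 testis arrays lay below both E16 ovary arrays. The sex differences were 0.04, 0.08 and -0.36 (adjusted p = 0.561 at E16, limma). In testis the difference between E16 and E13 was -0.58 (unadjusted p = 0.0259, adjusted p = 0.36), and it rests in part on E13 testis replicate 2, the highest of the 14 arrays. It was -0.94 without E13 testis replicate 1, as it was without the 4 arrays (adjusted p = 0.114 and 0.218), and -0.23 without E13 testis replicate 2. The other 3 Igf2 probe sets read at most 19.5, 10.1 and 7.8, below the median of every array, and correlated with the bright one at r = -0.00347, -0.155 and 0.207.

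Igf1r, the signalling receptor, had the narrowest range of group means among the 9 genes. It read 144 and 120.1 in E13 testis, against 107 and 126 in E13 ovary. It read 95.9 and 95.2 in E14 testis, against 127 and 113 in E14 ovary, and 106 and 88.7 in E16 testis, against 122 and 123 in E16 ovary. The sexes overlapped at E13, and testis lay below ovary at E14 and E16. The differences were 0.16, -0.29 and -0.29 (adjusted p = 0.81, 0.739 and 0.511, limma). In testis E14 differed from E13 by -0.40 (unadjusted p = 0.0338, adjusted p = 0.641) and E16 from E13 by -0.38 (unadjusted p = 0.0424, adjusted p = 0.436). They were -0.29 (adjusted p = 0.956) and -0.27 (0.764) without the 4 arrays.

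Igf2r, the clearance receptor for IGF2, split by label period within the ovary groups. It read 684 and 571 in E13 testis, against 824 and 859 in E13 ovary. It read 503 and 518 in E14 testis, against 1102 and 398 in E14 ovary, and 552 and 469 in E16 testis, against 660.1 and 337.5 in E16 ovary. In ovary the 4 arrays of label period 3 read 660.1 to 1102, and the 2 of period 1 read 398 and 337.5, whatever the age. The sex differences were -0.42, -0.37 and 0.10 (adjusted p = 0.792, 0.864 and 0.954, limma). Within a label batch that held both sexes they were 0.37 at E14 and 0.46 at E16, so at E14 the direction turned. The E16 pair used E16 ovary replicate 2, of discordant Xist. With the 4 arrays of discordant Xist left out the sex differences were -0.55, -0.35 and -0.37 from E13 to E16, so at E16 the direction turned. The second Igf2r probe set correlated with the first at r = 0.938 and showed the same split, with 640 and 244 on the 2 E14 ovary arrays and 529 and 215 on the 2 E16 ovary arrays. What the label period stands for is not known, its part in these values was not tested, and no sex or age direction is given for Igf2r. E16 ovary replicate 1 also had the highest 3′ to 5′ ratio of actin probes (3.35, against 1.48 to 2.97 elsewhere).

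**Figure D3:**
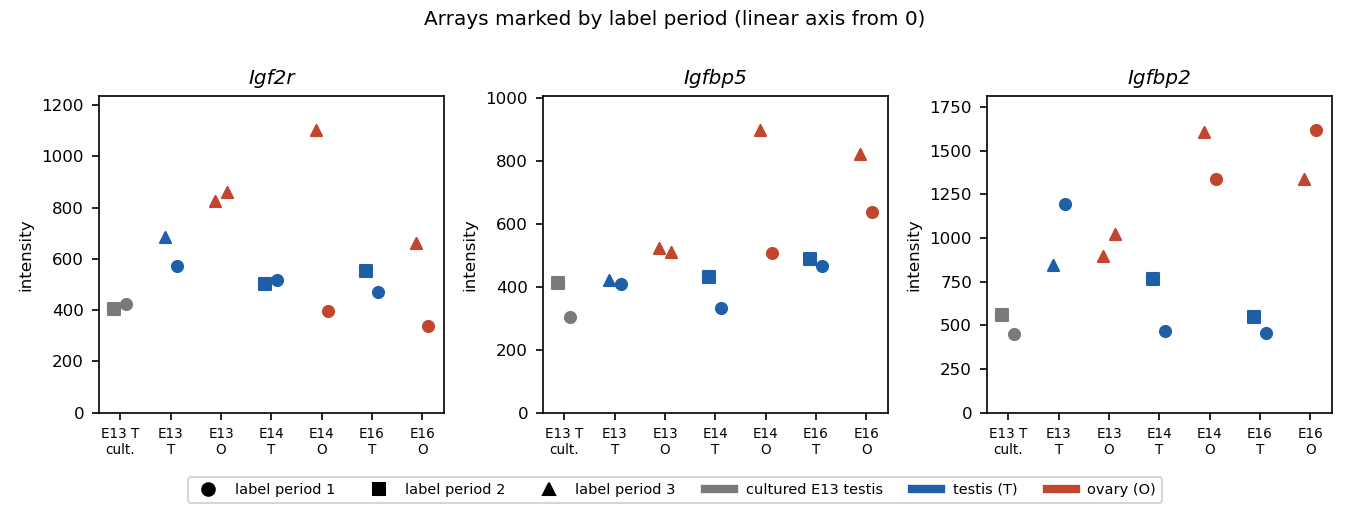
Deposited intensity (arbitrary units) of Igf2r, Igfbp5 and Igfbp2 on each array by group, with markers for the label period (circles period 1, squares period 2, triangles period 3). In ovary, Igf2r reads 660.1 to 1102 on period 3 arrays and 337.5 and 398 on period 1 arrays, while Igfbp2 in E16 testis lies below both E16 ovary arrays.

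Culture of E13 testis was set against fresh E13 testis, its start, and fresh E16 testis, its age-matched counterpart. These comparisons share the cultured arrays, and the comparison of cultured with E13 testis shares the E13 arrays with that of E16 with E13 testis. In neither comparison with fresh testis did any of the 18 probe sets pass in limma (0 of 18, against 1.39% of all probe sets for fresh E13 and 0.0945% for fresh E16). At an unadjusted p under 0.05, 6 of 18 differed from fresh E13 (33.3%, against 12.3% of all), and 2 of 18 from fresh E16 (11.1%, against 6.67%).

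Igfbp2 read 562 and 449 in cultured testis, against 842 and 1194 in fresh E13 and 546 and 458 in fresh E16 testis. The cultured arrays lay below both E13 arrays and overlapped those of E16. The difference from E13 was -0.98 (unadjusted p = 0.00315, adjusted p = 0.12, limma) and that from E16 was 0.01 (-0.57 to 0.58). Side by side, E16 testis differed from E13 testis by -0.98. Igf1 read 198 and 314 in cultured testis, against 112 and 92.7 in fresh E13 and 255 and 342 in fresh E16 testis. Its difference from E13 was 1.17 (unadjusted p = 0.00252, adjusted p = 0.11, limma) and from E16 -0.23 (-0.89 to 0.43), beside 1.40 between E16 and E13 testis. With label period as a block, Igf1 and Igfbp2 passed against fresh E13 (1.40, adjusted p = 0.0176, and -1.27, adjusted p = 0.0312), and Igf1 with label batch as a random block (1.20, 0.0477). Without the 4 arrays the differences from E13 were 1.60 for Igf1 and -1.38 for Igfbp2, and neither passed (adjusted p = 0.128 and 0.141).

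Igfbp3 read 383 and 420 in cultured testis, against 213 and 221 in fresh E13 and 287 and 533 in fresh E16 testis. The brighter set differed from E13 by 0.84 (unadjusted p = 0.0223, adjusted p = 0.297, limma) and from E16 by 0.03 (-0.66 to 0.73), whereas the dimmer set differed from E13 by 0.07 (adjusted p = 0.97), so the probe sets disagreed. Igf2 read 1313 and 1275 in cultured testis, against 1603 and 2639 in fresh E13 and 1514 and 1232 in fresh E16 testis. It differed from E13 by -0.66 (unadjusted p = 0.0141, adjusted p = 0.244, limma) and from E16 by -0.08. The difference from E13 was -1.02 without E13 testis replicate 1 and -0.31 without E13 testis replicate 2. It was -1.04 for Igf2 and 0.88 for the brighter Igfbp3 set without the 4 arrays (adjusted p = 0.211 and 0.57). The 95% intervals against E16 are wide on either side of 0, so these values do not show that cultured and E16 testis were alike.

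The other members gave no passing difference in culture. Igf1r read 102 and 110 in cultured testis, against 144 and 120.1 in fresh E13 testis. Igf2r read 405 and 422 in cultured testis, against 684 and 571 in fresh E13 testis, and lay below it on both arrays. Igfbp4 read 282 and 414 in cultured testis, against 212 and 379 in fresh E13 testis. Igfbp5 read 413.5 and 304 in cultured testis, against 422 and 409 in fresh E13 testis. Both genes overlapped between these groups, as did Igfbp6, at 54.8 and 63.8 in cultured testis, against 85.2 and 46.6 in fresh E13 testis. The dimmer Igfbp6 set read 36.1 and 3.7 in cultured testis, against 47.5 and 41.6 in fresh E13 testis (-0.92, adjusted p = 0.324, limma), and cultured replicate 2, which holds the 3.7, also had a high actin 3′ to 5′ ratio (2.97).

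Cell type markers differed in culture as well, and their part in these values was not tested. Against fresh E13 testis, 7 of 12 Sertoli cell genes, 5 of 8 fetal Leydig cell genes and 4 of 4 adrenal genes passed as higher in cultured testis. The adrenal and Leydig lists share Star and Hsd3b1. Of 8 macrophage genes only Lyz2 passed, as higher (1.14, adjusted p = 0.0313, limma). The sums of the 8 were also higher, at 611 and 557 in cultured testis, against 323 and 403 in fresh E13 testis. Of 4 red blood cell genes 0 passed, but their sums stood far apart between the cultured pools, at 7423 and 932, against 3849 and 5428 in fresh E13 testis.

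**Figure D4:**
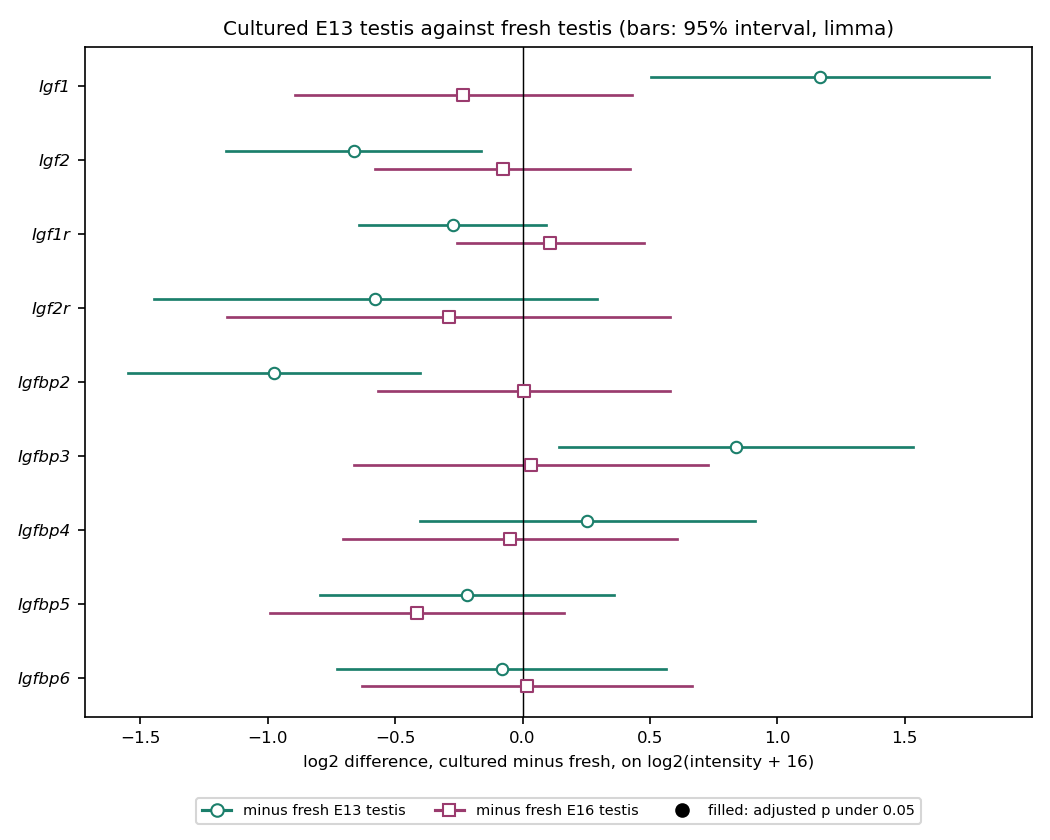
Cultured E13 testis minus fresh E13 testis and minus fresh E16 testis for the brightest probe set of each IGF gene, as log2 difference on log2(intensity + 16) with its 95% interval from limma (horizontal axis). No point is filled, since none passed at an adjusted p under 0.05; against E13, Igf1 lies at 1.17 and Igfbp2 at -0.98, and against E16 they lie at -0.23 and 0.01.

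Over all 18 probe sets, calls were few and read against those over the whole array. At E16, 1 of 18 passed as lower in testis in limma (0.725% of all probe sets passed as lower and 1.74% in either direction), and 6 of 18 had an unadjusted p under 0.05 (33.3%, against 13% of all). The mean over ages gave 1 of 18, also lower (1.03% lower and 2.31% in either direction), and 7 of 18 unadjusted (38.9%, against 20%). At E13 0 of 18 passed (0.0126% of all) and 2 had an unadjusted p under 0.05 (7.79%). These 2 were dim sets, of Igf2 (10.7 in testis, against 2.05 in ovary) and Igfbp5 (9.3, against 2.65). At E14 0 of 18 passed (0.139%) and 4 unadjusted (8%). The change in sex difference gave 0 of 18 (0.145%) and 3 unadjusted (6.49%). Group arrays did not overlap for 8 of 9 genes at E16, against 41.8% of all probe sets, for 5 of 9 at E14 (34.6%) and for 4 of 9 at E13 (46.2%). The median sex difference of the 9 genes was 0.10 at E16, against 0.05 over all probe sets.

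Between ages, 0 of 18 passed in limma in each of the 6 steps. For testis the share of all probe sets that passed was 0.0693% between E13 and E14, 0.12% between E14 and E16 and 0.945% between E13 and E16, and 4, 1 and 7 of the 18 had an unadjusted p under 0.05 (7.19%, 5.16% and 10.7% of all). For ovary the shares were 0%, 0% and 0.889%, and 3, 0 and 4 of the 18 had an unadjusted p under 0.05 (4.28%, 6.15% and 10.7% of all). Probe sets of 1 gene measure the same RNA and are not independent.

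The rest of the pathway was read on 1 probe set per gene, and 4.4% of all probe sets passed in at least 1 of the 13 comparisons. These calls rest on all 14 arrays, and are not given without the 4 arrays of discordant Xist. Of 8 other IGF-binding and carrier proteins, 1 passed in any comparison: Igfbp7, which binds IGFs only weakly. It averaged 840 ± 219 in E16 testis and 131 ± 13.8 in E13 testis, 353 ± 136 in E16 ovary and 76.4 ± 6.8 in E13 ovary, and 724 ± 125 in cultured testis (SD, n = 2 each). It was higher in E16 than in E13 testis by 2.52 (adjusted p = 0.00615, limma) and in E16 than in E13 ovary by 1.95 (0.0271). In cultured testis it was above fresh E13 testis by 2.32 (0.00785). As the mean over ages, Igfbp7 was higher in testis than in ovary by 0.88 (adjusted p = 0.0441, limma). Igfals, the partner of IGFBP3 in serum, and Igfbp1 read at most 8.8 and 13.7.

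Of 9 measured proteases that cut binding proteins and their inhibitors, 3 passed in some comparison: Plat, Mmp2 and Klk1. Plat, the tissue plasminogen activator, averaged 234 ± 53.7 in E16 testis and 118 ± 8.7 in E16 ovary (0.88, adjusted p = 0.042, limma). Mmp2, a gelatinase, averaged 640 ± 173 over the testis arrays and 377 ± 68.6 over the ovary arrays (SD, n = 6 each; 0.71, adjusted p = 0.0229). Klk1, a kallikrein, was lower in testis over the ages (-1.08, adjusted p = 0.00545) and lower in E16 than in E13 ovary (-1.86, adjusted p = 0.0109). Of 8 measured insulin and relaxin family genes and receptors, only Insl3 passed, the Leydig cell hormone of testis descent, at 1099 ± 791 in E16 testis and 28.4 ± 23.8 in E16 ovary (4.55, adjusted p = 0.00312). The insulin receptor Insr read 30.3 to 61.4 over all arrays and passed in none of the comparisons.

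Of 22 measured adaptors and kinases that carry the receptor signal to AKT, 2 passed in some comparison. Grb10, an adaptor that restrains IGF1R and the insulin receptor, averaged 983 ± 39.8 in E16 testis and 522 ± 104 in E16 ovary (0.90, adjusted p = 0.0317, limma), and in ovary it was lower at E16 than at E13 (1540 ± 60.7 at E13, -1.54, adjusted p = 0.00361). Foxo3, a transcription factor that AKT holds out of the nucleus, averaged 237 ± 58 over testis arrays and 446 ± 102 over ovary arrays (SD, n = 6 each; -0.87, adjusted p = 0.0232). Of 13 measured imprinted growth genes, 4 passed as higher in E16 testis and 0 as lower, where 1.74% of all probe sets passed. They were Cdkn1c (1.59, adjusted p = 0.0163, limma), Nnat (1.14, 0.0163), Grb10 and Plagl1 (1.32, 0.0478). The median difference of the 13 was 0.76, against 0.05 over all probe sets. In ovary, 3 of the 13 passed as lower at E16 than at E13 and 0 as higher, where 0.889% of all probe sets passed. They were Grb10, Mest (-1.14, adjusted p = 0.0139, limma) and Nnat (-1.18, 0.0243). Over the ages, 2 of the 13 passed as higher in testis and 1 as lower. The higher ones were Nnat (0.66, adjusted p = 0.0143, limma) and Dcn (0.90, 0.038). Dcn was also higher in E16 than in E13 testis (2.92, adjusted p = 0.00263, limma) and in cultured than in fresh E13 testis (2.60, 0.00447). H19, the maternally expressed RNA next to Igf2, was lower in testis over the ages, at 1494 ± 349, against 2258 ± 233 in ovary (SD, n = 6 each; -0.62, adjusted p = 0.0278), while Igf2 itself did not pass.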

How the data were processed

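The deposited values are intensities on a linear scale, 1 per probe set and array, in the authors' series table. Which software summarised the probes is not given in the sources used here. After trimming 2% at each end, the mean was 125.03 on all 14 arrays, so the arrays had been scaled to a common level. Of 15923 probe sets, 57 controls were left out. Symbols came from the platform annotation, which gave 12783 of 15866 tested probe sets 1 symbol, 312 several and 2771 none. Of these, 12748 matched RefSeq genes of assembly GRCr8. The summary of a gene uses its probe set with the highest mean over all arrays.

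Values were analysed as log2(intensity + 16) with limma 3.58.1 in R 4.3.3 (lmFit, eBayes, a mean per group, degrees of freedom 7 residual and 4.16 prior), where the spread was estimated jointly for the 7 groups, with Benjamini-Hochberg adjustment over 15866 probe sets in each of 13 comparisons. The fit was tested on simulated data for E16 testis minus ovary (15866 probe sets). It recovered 90% of changes of 1.5 and 100% of changes of 3 on the log2 scale, and called 14 unchanged probe sets. The simulated noise was independent between arrays and held no label batches, label periods or arrays of discordant Xist. These shares therefore do not give the sensitivity on the real arrays. Members, lists and tests were chosen with earlier results of these data known. All probe sets of the 9 genes are described. From each pathway list, members that passed are counted and up to 3 per direction named, and for Igf1 and Igfbp3, the genes with the widest range of group means, the 5 named probe sets with the highest Pearson correlation over arrays are given. Alternatives were offsets of 1 and 64, quantile normalization, a filter on dim probe sets, label period or batch as a block, a replicate block, fewer arrays, and each array left out.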

Additional observations from a re-analysis of the deposited data

How the results depend on the processing

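The 33 differences of single IGF genes with an unadjusted p under 0.05 kept their direction in all 758 refits under up to 23 alternatives. Many of these refits could not move the estimate: at E16 that of Igfbp2 stayed at -1.53 whenever an array of another group was left out. The 33 were also selected on these same data, so the count is no measure of stability. The number of the 18 probe sets that passed moved as follows. For testis minus ovary at E14 (0 in the report) it was 1 with label period as a block and 1 with label batch as a random block. At E16 (1 in the report) it was 2 with label period as a block, 3 with label batch as a random block, 0 without the 4 arrays whose Xist went against the label and 0 with only the arrays of the groups compared. Leaving out 1 array at a time gave 0 to 2, with 0 without E16 testis replicate 1, E16 testis replicate 2 or E16 ovary replicate 2, and 2 without E16 ovary replicate 1. For the mean over ages (1 in the report) it was 2 with label batch as a random block, 3 with the replicate block, 0 without the 4 arrays, and 1 to 2 with 1 array left out (2 without E14 ovary replicate 2). For testis E14 minus E13 it was 1 with label period as a block (0 in the report). For testis E16 minus E13 (0 in the report) it was 1 with the filter on dim probe sets, 3 with label period as a block, 1 with label batch as a random block, 1 with the replicate block, and 0 to 1 with 1 array left out (1 without E13 testis replicate 1, E14 testis replicate 1 or E14 testis replicate 2). For cultured minus fresh E13 testis (0 in the report) it was 4 with label period as a block, 1 with label batch as a random block, 1 with the replicate block, and 0 to 1 with 1 array left out (1 without cultured replicate 1 or E13 testis replicate 1). For cultured minus fresh E16 testis it was 0 to 1 (1 without cultured replicate 1, the dimmer Igfbp6 set, -1.66, adjusted p = 0.049, limma). The counts of the other comparisons were 0 in every alternative run. The 4 arrays left out, or only the compared arrays kept, also leave fewer arrays; the cause of the other moves was not tested. Over all 15866 probe sets at E16, 276 passed in the report's fit, 594 with label batch as a random block, 323 with label period as a block, 14 without the 4 arrays and 11 with only the compared arrays. Deviations of same-numbered arrays correlated at -0.0534 to 0.53, under 0.1 for the pairs with E13 ovary and above it for the others; replicate numbers partly follow the label periods, and the labels do not say what a number shares. With the replicate block, Igf1 passed for the mean over ages, testis E16 minus E13 and culture (adjusted p = 0.0327, 0.0163 and 0.0308, limma) and Igfbp5 for the mean over ages (0.0279). With 2 arrays in a group, changes near the spread of the 2 pools cannot be resolved, and the dim Igf2, Igfbp5 and Igfbp6 probe sets limit what those genes show. Label batches and groups are partly confounded, as the E13 testis and E13 ovary arrays lie in batches of their own.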
